A study of Mus musculus with 17 samples.

Results

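The response of bone marrow dendritic cells (BMDC) to MSA2 was described from 6 of the 17 mouse RNA sequencing libraries of the study, across every gene of the deposited BMDC table. The libraries were chosen by title, 3 of MSA2-treated BMDC and 3 of BMDC Control. Dendritic cells are the antigen-presenting cells that start T cell responses, and MSA2 is an orally available non-nucleotide agonist of STING. The study also sequenced spleen B cells, and in both cell types it included a group given MSA2 together with IPI-549, an inhibitor of the kinase PI3Kγ. The series title names pancreatic cancer, STING and PI3Kγ as its subject. The design text says that the cells came from KPC mice, a model of pancreatic cancer, and met the drugs after harvest, while the genotype label of each library reads WT. All 17 libraries carry the treatment label Control, so groups were taken from the titles. Both groups used here therefore share mouse source, tissue (bone marrow) and label of genotype, and differ by title in MSA2 alone. Dose, time of exposure, culture cytokines, age and vehicle are not in the sources used here. Whether replicates are separate mice or cultures is not in the labels, so p-values measure the spread between these libraries, which may be technical. The 2 BMDC libraries with MSA2 and IPI-549 entered the model to share its estimate of spread. They also entered the low count filter, the scaling and the principal components. With only the 2 compared groups, 14061 genes were tested in place of 14613.

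STING sits on the endoplasmic reticulum and is switched on by cyclic dinucleotides, which the sensor cGAS makes when it meets DNA in the cytosol. Active STING recruits the kinase TBK1, which activates the transcription factor IRF3 and leads to type I interferon, and it also activates NF-κB, which drives inflammatory cytokines. Secreted interferon then acts back on the cells through its receptor and the JAK-STAT factors to induce interferon-stimulated genes, and dendritic cells that mature this way display costimulatory proteins to T cells.

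Levels are given as CPM, read counts scaled to a common library total, with totals scaled by the trimmed mean of M-values. Per-library values are listed in the order of replicates 1, 2 and 3. Fold changes are log2 of MSA2 over Control with their standard error (SE), and p-values of edgeR (quasi-likelihood test) were adjusted over all genes tested by Benjamini-Hochberg. A gene was called at an adjusted p under 0.05.

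The libraries held 34757983 to 73163252 counts, and MSA2 replicate 2 was the deepest. Log expression correlated at 0.995 to 0.997 between libraries of a group and at 0.974 to 0.982 between Control and MSA2, across genes, which are not independent replicates. The first principal component of all 8 BMDC libraries carried 75.4% of the variance. It placed all 3 Control libraries on one side and all 3 MSA2 libraries on the other. Of the 37 gene lists, 9 held markers of blood, immune or stromal cells, and they were used to check the label. The dendritic cell list summed to 2375 to 2726 CPM in Control and 2241 to 2498 CPM with MSA2, led by Itgax, the gene of the integrin CD11c. The monocyte and macrophage list summed to 16902 to 19224 CPM in Control and 13974 to 17083 CPM with MSA2, most of it Lyz2, a lysozyme of myeloid cells. Per kilobase of exon in Control, Itgax stood at 374 CPM, the macrophage genes Csf1r and Adgre1 at 156 and 136 CPM, and the dendritic cell factor Zbtb46 at 1.68 CPM. Flt3, the receptor that defines conventional dendritic cell lineages, was at 0.0442 CPM per kilobase. The libraries thus held both dendritic cell and macrophage markers, and Flt3 was close to 0. T cell, B cell, NK cell and red cell precursor markers were low, with sums of 10.6 to 15.5, 20.3 to 36.0, 6.19 to 8.99 and 1.21 to 3.26 CPM, and Cd3e and Ncr1 had no counts in either group.

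MSA2 changed 4118 of 14613 tested genes, 28.2%, with 2140 called higher (14.6% of those tested) and 1978 called lower (13.5%). Each count of list members called below is to be read beside these shares. Members nearly absent from Control passed the low count filter through libraries given MSA2, and they can raise the share called higher in their list. The direction counts were close, whereas the sizes were not. Of the genes called higher, 631 passed 2-fold, 243 passed 4-fold and 89 passed 16-fold. Of those called lower, 273 passed 2-fold, 52 passed 4-fold and 3 passed 16-fold. The median log2 fold change was 0.53 among genes called higher and -0.45 among genes called lower, against -0.01 over all tested genes. Changes under 1.5-fold made up 1165 of the higher and 1280 of the lower calls. The share of reads in the genes called higher was 11.6 to 11.9% in Control and 18.5 to 20.05% with MSA2, and the share in genes called lower was 23.6 to 24.2% and 17.9 to 18.6%. The direction of both shifts was set in advance, because the genes were chosen by their change in these libraries. With upper quartile library factors in place of the trimmed mean, 1678 genes were higher and 2896 lower, so that 36.69% of calls were higher in place of 51.97%. Tested against 1.5-fold as the least change, the calls numbered 576 higher and 196 lower. The 3 genes called lower by over 16-fold, Pet117, Zfp708 and the ribosomal pseudogene Rpl7a-ps11 (named after their values were seen), had no counts or 4 counts in all over the MSA2 libraries, and their fitted folds are no measure of size. Bulk libraries do not tell fewer cells of a kind from less RNA per cell.

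**Figure D1:**
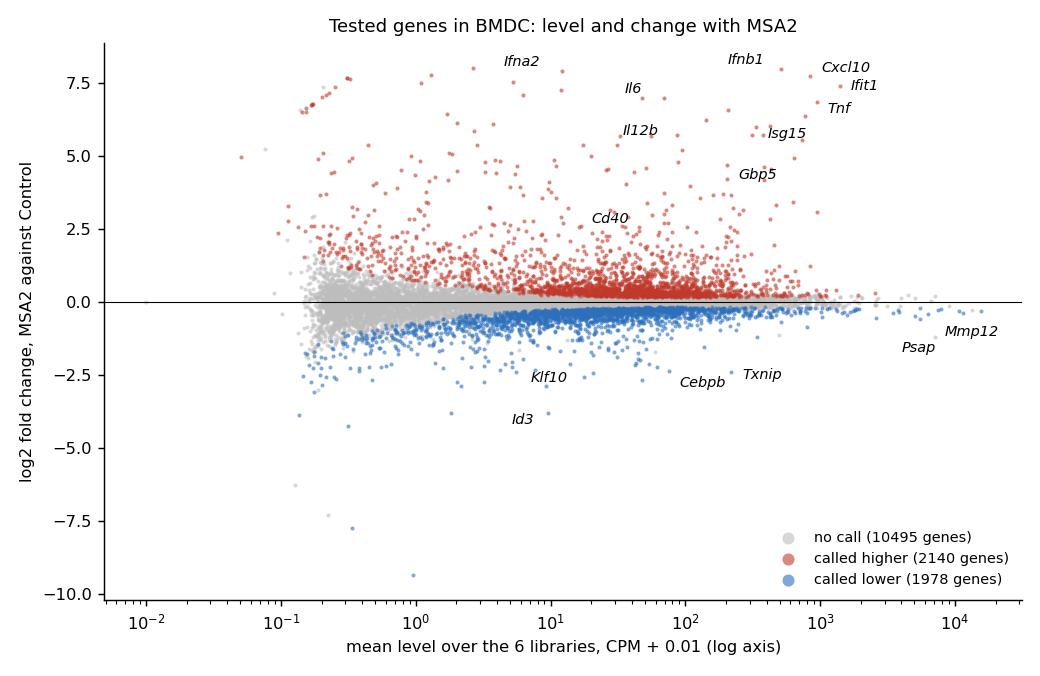
Each point is 1 of the 14613 tested genes, with its mean level over the 6 libraries on a log axis of CPM and its log2 fold change, MSA2 against Control. The 2140 genes called higher (red) include 89 beyond 16-fold and the 1978 called lower (blue) include 3.

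The 8 largest rises among called genes of at least 5 CPM without overlap between the groups were those of Ifnb1, Ifna2, Cxcl10, Cxcl11, Ifit1, Ifna4, Ifna1 and Il6. Ifnb1, which encodes interferon beta and has a single exon (GRCm38, chr4:88522025-88522774), stood at 0, 11.2 and 0.0577 CPM in Control and 1102, 981 and 991 CPM with MSA2, which is 7.99 ± 0.96 SE, adjusted p = 9.82e-05 in log2 fold change. Control replicate 2 was well above the other controls. Without it 2 counts remained in Control against 151985 with MSA2, a ratio of 34843 (95% counting interval 9645 to 287711). Ifna2, an interferon alpha gene, stood at 0, 0.247 and 0 CPM in Control and 24.6, 20.9 and 26.7 CPM with MSA2 (7.93 ± 0.37 SE, adjusted p = 7.19e-08). Ifna4 stood at 0, 0.381 and 0 CPM in Control and 22.6, 19.9 and 28.2 CPM with MSA2 (7.29 ± 0.43 SE, adjusted p = 3.92e-07). Ifna1 stood at 0, 0.224 and 0 CPM in Control and 9.10, 12.8 and 15.0 CPM with MSA2 (7.10 ± 0.45 SE, adjusted p = 6.46e-07). The Control counts of all 3 came from replicate 2. Without it, a floor of 3 counts over the other controls puts Ifna2 at least 535.7-fold, Ifna4 at least 522-fold and Ifna1 at least 285-fold higher with MSA2.

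All 14 tested members of the type I and III interferon list were called higher, with a median log2 fold change of 7.20. Over all tested genes 14.6% were called higher, but the 2 shares are not comparable. The 14 had few or no counts in most Control libraries and passed the low count filter through libraries given MSA2, alone or with IPI-549. Members low in every group were not tested, so the share called or without overlap was largely set by the filter. The median was 6.61 with the 4 genes that had no Control count at their bound. Of the 14, 13 had no overlap between the groups, as did 20.3% of all tested genes toward higher and 21.3% toward lower values. The members that failed the low count filter were Ifna7, Ifna13, Ifne, Ifnk, Ifnl2 and Ifnl3. The lambda interferon genes Ifnl2 and Ifnl3 had 15 and 11 counts over the MSA2 libraries and 0 over Control. For Ifnab, Ifna11, Ifna15 and Ifna12, with 0 counts over the Control libraries, a floor of 3 counts over the group puts them at least 17.6-fold, 11.7-fold, 11.2-fold and 3.48-fold higher. Pooled counts of Ifnb1 were 501 in Control and 151985 with MSA2, a ratio of 226 relative to library totals (95% counting interval 207 to 247). Interferon alpha genes are near-identical copies, and reads they share make the value of each uncertain. Without Control replicate 2, 12 members were called higher.

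**Figure D2:**
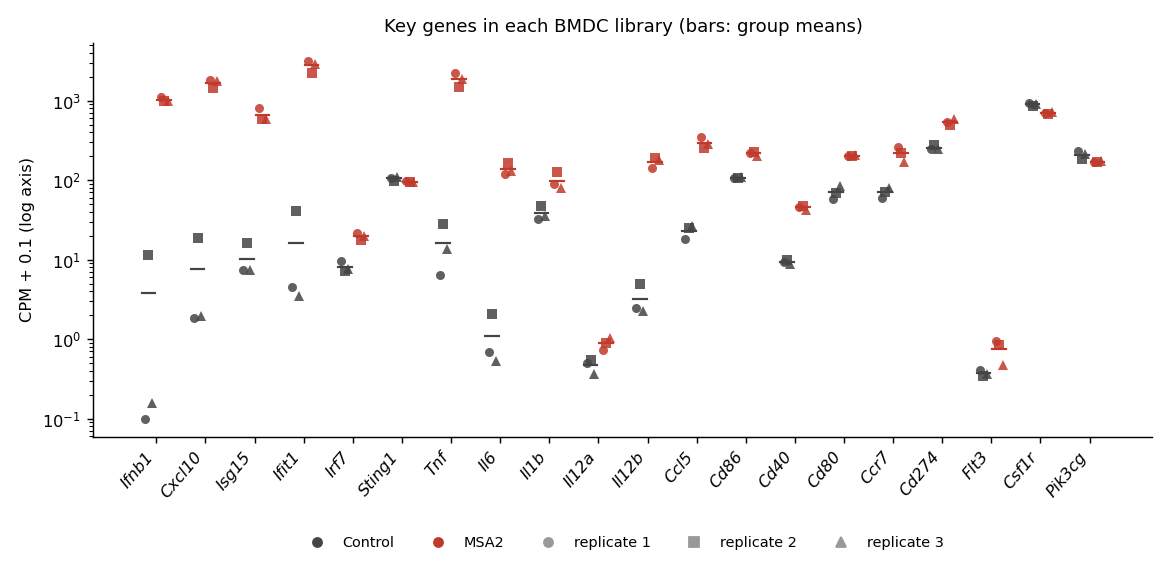
Each point is the level of 1 key gene in 1 library, as CPM + 0.1 on a log axis, grey for Control and red for MSA2, with bars at the group means. Interferon and cytokine genes are separated by up to several powers of 10, with Control replicate 2 (square) highest among the controls for many of them, while Sting1, Csf1r and Pik3cg differ little.

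Control replicate 2 stood apart from the other controls in the induced genes. Among the 24 genes with a log2 fold change over 5 and a mean of at least 5 CPM, it was the highest control in 22, all except Ccl4 and Mx2. Its excess over the mean of Control replicates 1 and 3 came to a median of 0.999% of the MSA2 mean, ranging from 0.164% for Mx2 to 1.82% for Ifna1. Cxcl10 and Ifnb1, for instance, each exceeded the other controls by an amount equal to 1.01% and 1.09% of their MSA2 mean. The origin of these reads was not tested. Without this library 1756 genes were higher and 1542 lower, and 3170 of these calls were also made with it, all in the same direction.

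**Figure D3:**
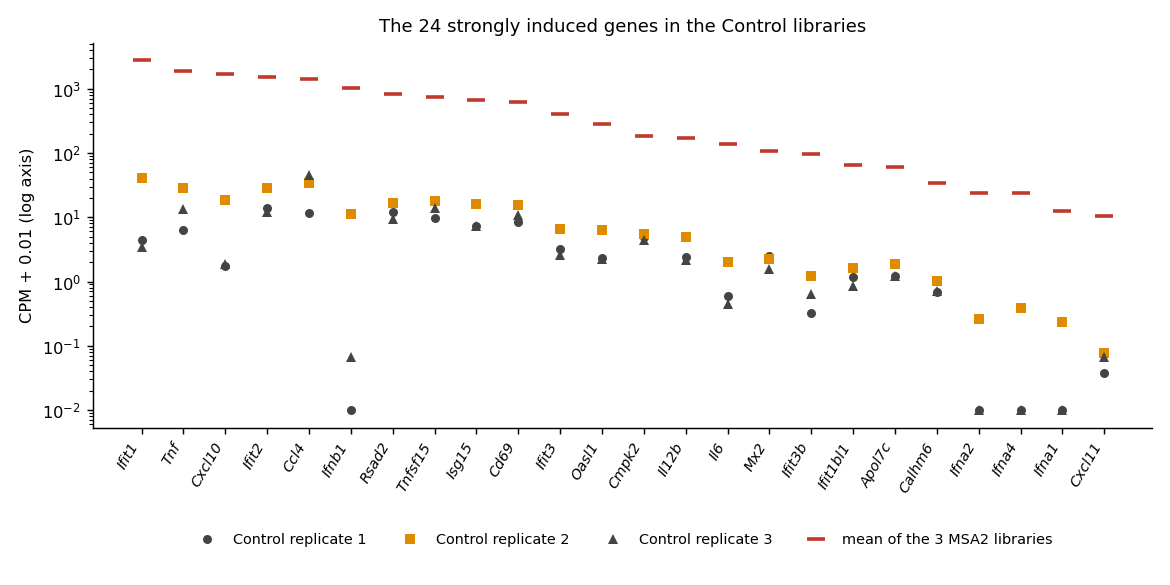
For each of the 24 strongly induced genes, points give CPM + 0.01 in the 3 Control libraries and red bars the mean of the 3 MSA2 libraries, on a log axis. Control replicate 2 (orange squares) is the highest control for 22 of the 24 genes, yet remains far below the MSA2 mean.

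Interferon-stimulated genes rose broadly. Of 42 tested members, 34 were called higher, 0 lower and 8 had no call, with a median log2 fold change of 1.55 (all tested genes, -0.01). Ifit1, whose protein captures viral RNA, stood at 4.40, 40.6 and 3.40 CPM in Control and 3189, 2228 and 2909.7 CPM with MSA2 (7.40 ± 0.84 SE, adjusted p = 6.59e-05). It had the largest gain in CPM of any gene that met the naming rule, and without Control replicate 2 its log2 fold change was 9.47. Isg15, a ubiquitin-like modifier, stood at 7.32, 16.1 and 7.27 CPM in Control and 808, 580.1 and 594 CPM with MSA2 (5.99 ± 0.29 SE, adjusted p = 9.86e-08). Its groups did not overlap, and neither did those of Ifit1. Rsad2, which encodes the antiviral enzyme viperin, stood at 12, 16.8 and 9.54 CPM in Control and 1059.8, 642 and 817 CPM with MSA2 (6.03 ± 0.27 SE, adjusted p = 4.67e-08).

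Other members differed widely in size. Ifih1, which encodes the RNA sensor MDA5, stood at 32.7, 33.8 and 29.7 CPM in Control and 487, 315 and 414 CPM with MSA2 (3.66 ± 0.16 SE, adjusted p = 4.44e-08). Gbp5, a guanylate-binding protein of host defence, stood at 22.7, 23.6 and 15.9 CPM in Control and 350.1, 341 and 469.8 CPM with MSA2 (4.22 ± 0.18 SE, adjusted p = 4.11e-08). Rtp4, a chaperone-like interferon target, stood at 4.79, 4.51 and 3.14 CPM in Control and 69.5, 73.5 and 62.3 CPM with MSA2 (4.04 ± 0.15 SE, adjusted p = 1.71e-08). Fold changes above 5 on the log2 scale were also found for Ifit2 (6.38), Ifit3 (6.59), Ifit3b (6.99), Oasl1 (6.25), Mx2 (5.68), Ifit1bl1 (5.69) and Cmpk2 (5.22). Ifit3 and Ifit3b are near copies and share reads. The Ifit genes lie side by side on chromosome 19, from 34550694 to 34650009. By contrast, Oas1a (0.35 ± 0.08), Ifi35 (0.28 ± 0.08) and Ifitm3 (0.57 ± 0.06) rose by less than 1 log2 unit. Members that did not pass were Igtp, Trim30a, Oas2, Oas3, Bst2, Eif2ak2, Tor3a and Phf11d, with log2 fold changes from -0.24 to 0.48. With Control replicate 2 left out 30 members were called higher.

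Promoters of the induced genes were read for the interferon-stimulated response element, the site bound by interferon-regulated factors, searched as GAAA NN GAAA on both strands. A κB site, bound by NF-κB, was searched as GGGA N TTTCC on both strands, N being any base, and in the windows shown no match to one overlapped a match to the other. The windows, from RefSeq on GRCm38.p6, run from 250 bases before to 50 bases after a gene's start. The 4 shown first are the named interferon-stimulated or chemokine genes with the smallest p that had a window. Cxcl10 and Ifnb1 were added after their values were seen, because they led the response. Capitals mark either motif, and where 3 matches of Isg15 overlap they form 1 run. Each is printed 5′ to 3′ on the gene's own strand, and a match is a description of letters only.
Gbp5, chr3:142496684-142496983, plus strand: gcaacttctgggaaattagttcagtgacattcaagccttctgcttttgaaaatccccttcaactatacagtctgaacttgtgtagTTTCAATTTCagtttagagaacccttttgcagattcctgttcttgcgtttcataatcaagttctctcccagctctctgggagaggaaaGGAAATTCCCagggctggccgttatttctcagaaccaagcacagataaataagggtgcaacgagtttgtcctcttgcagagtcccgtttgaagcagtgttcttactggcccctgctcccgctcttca
Ifih1, chr2:62646206-62646505, minus strand: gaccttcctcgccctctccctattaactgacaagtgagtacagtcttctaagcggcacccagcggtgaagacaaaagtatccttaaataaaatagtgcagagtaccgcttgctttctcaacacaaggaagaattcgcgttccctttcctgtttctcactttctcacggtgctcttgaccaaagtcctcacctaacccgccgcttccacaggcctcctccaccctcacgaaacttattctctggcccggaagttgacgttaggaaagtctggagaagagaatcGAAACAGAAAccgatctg
Rsad2, chr12:26456403-26456702, minus strand: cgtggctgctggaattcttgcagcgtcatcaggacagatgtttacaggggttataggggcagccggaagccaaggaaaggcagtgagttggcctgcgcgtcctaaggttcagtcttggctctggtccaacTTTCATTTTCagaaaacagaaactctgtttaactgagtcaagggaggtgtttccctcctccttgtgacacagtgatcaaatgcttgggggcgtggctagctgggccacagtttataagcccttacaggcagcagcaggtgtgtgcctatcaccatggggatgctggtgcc
Isg15, chr4:156200769-156201068, minus strand: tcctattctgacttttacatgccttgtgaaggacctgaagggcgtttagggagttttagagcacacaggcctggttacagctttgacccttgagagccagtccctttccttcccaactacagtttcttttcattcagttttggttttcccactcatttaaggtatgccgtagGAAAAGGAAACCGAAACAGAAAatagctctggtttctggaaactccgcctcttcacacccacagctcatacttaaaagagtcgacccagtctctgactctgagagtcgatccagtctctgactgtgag
Cxcl10, chr5:92348840-92349139, minus strand: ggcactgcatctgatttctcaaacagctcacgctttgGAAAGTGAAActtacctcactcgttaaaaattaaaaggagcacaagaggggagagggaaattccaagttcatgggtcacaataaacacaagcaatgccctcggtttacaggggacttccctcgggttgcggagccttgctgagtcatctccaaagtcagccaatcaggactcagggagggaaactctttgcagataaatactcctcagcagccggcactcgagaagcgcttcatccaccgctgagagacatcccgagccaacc
Ifnb1, chr4:88522745-88523044, minus strand: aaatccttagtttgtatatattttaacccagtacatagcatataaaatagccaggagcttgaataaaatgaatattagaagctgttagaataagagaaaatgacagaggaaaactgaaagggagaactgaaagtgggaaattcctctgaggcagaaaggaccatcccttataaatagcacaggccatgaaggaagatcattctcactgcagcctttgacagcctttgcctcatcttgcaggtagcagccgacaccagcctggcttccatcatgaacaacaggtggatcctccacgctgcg

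Gbp5, Ifih1, Rsad2 and Cxcl10 each held 1 match to the response element and Isg15 held 3, while Ifnb1 held no exact match. The κB letters as searched occurred in Gbp5 alone of the 6. Only 1 form of each site was searched, so the lack of a match does not mean the lack of a site. The windows of Ifnb1 and Cxcl10 both hold gggaaattcc, which differs from the κB form searched by 1 base. Over all 32851 promoter windows 3.44% held the response element and 0.411% the κB letters. Windows of genes called higher by over 16-fold held the response element in 24 of 66 cases, 36.4%, those over 4-fold in 21.9% and all genes called higher in 6.27%. For genes called lower the share was 2.47%, and 1.35% for those lower by over 2-fold. In the interferon-stimulated list, 17 of 32 windows of members called higher held it, 53.1%. In the chemokine list, 1 of 9 such windows held the response element and 3 of 9 the κB letters. These shares have no test, because the genes were chosen by their change. Genes with few exons were common on both sides, since among protein-coding genes 23.7% of those higher by over 4-fold and 27.2% of those lower by over 2-fold had no model with more than 2 exons, against 5.97% of all those tested.

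The STING pathway itself shifted in part. Of 20 tested members, 11 were called higher, 1 lower and 8 had no call, with a median log2 fold change of 0.27. Sting1 stood at 106, 98.2 and 111 CPM in Control and 98.1, 95.8 and 94.1 CPM with MSA2 (-0.13 ± 0.06 SE, adjusted p = 0.136). All MSA2 values lay below all Control values, and of the alternatives run the gene passed only with upper quartile factors (-0.20, adjusted p = 0.0220). Cgas, the DNA sensor upstream, rose (0.72 ± 0.17 SE, adjusted p = 0.00862), as did Tbk1, the kinase below STING (0.31 ± 0.05 SE, adjusted p = 0.00122). Irf7, the factor that amplifies interferon production, stood at 9.39, 7.11 and 7.53 CPM in Control and 21.8, 17.5 and 19.5 CPM with MSA2 (1.29 ± 0.13 SE, adjusted p = 2.31e-05), without overlap. Irf3, which TBK1 activates, had no call (-0.18 ± 0.08 SE, adjusted p = 0.13).

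Larger rises came from Ifi207 and Ifi204 and from a brake. Ifi207, a DNA-binding protein of the PYHIN family, stood at 44.6, 40.6 and 46.3 CPM in Control and 320.5, 284 and 344 CPM with MSA2 (2.85 ± 0.11 SE, adjusted p = 2.0e-08). Trex1, the nuclease that degrades cytosolic DNA and so limits cGAS, stood at 22.1, 18 and 14.7 CPM in Control and 156, 88.7 and 118 CPM with MSA2 (2.72 ± 0.19 SE, adjusted p = 1.80e-06). Ifi204, a PYHIN relative that can share reads with Ifi207, and Zbp1, a sensor of left-handed nucleic acid, rose by 1.34 ± 0.11 and 1.11 ± 0.09. The member called lower was Nlrc3, a negative regulator of STING, at 2.21, 2.31 and 2.51 CPM in Control and 1.13, 1.40 and 1.15 CPM with MSA2 (-0.92 ± 0.17 SE, adjusted p = 0.0022). With upper quartile factors 5 members were called lower, and without Control replicate 2 the number was 2.

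Genes of interferon reception moved in both directions. Of 22 tested members of the receptor and JAK-STAT list, 8 were called higher, 5 lower and 9 had no call (median 0.08). The receptor chains for type I interferon, Ifnar1 (-0.38 ± 0.05 SE, adjusted p = 0.000255) and Ifnar2 (-0.34 ± 0.06 SE, adjusted p = 0.00187), both fell, and so did Ifngr2, a chain of the interferon gamma receptor (-0.73 ± 0.07 SE, adjusted p = 1.70e-05). Ifngr2 stood at 83.1, 85.8 and 94.3 CPM in Control and 52.0, 55.8 and 51.1 CPM with MSA2. Among the transcription factors, Stat2 rose (0.76 ± 0.11 SE, adjusted p = 0.000364). Irf1 stood at 60.2, 64.2 and 50.1 CPM in Control and 195, 83.3 and 132 CPM with MSA2 (1.23 ± 0.23 SE, adjusted p = 0.00237), with the highest value in MSA2 replicate 1. Usp18, which shuts off type I interferon signalling, rose by 1.3 ± 0.23, whereas Socs1, an inhibitor of JAK kinases, fell by a log2 fold change of -0.92 ± 0.28. Irf8 and Irf4, factors of dendritic cell subsets, moved apart, with Irf8 at 112, 108 and 117 CPM in Control and 284, 196 and 201 CPM with MSA2 (1.02 ± 0.12 SE, adjusted p = 8.80e-05) and Irf4 at 232, 184 and 242 CPM in Control and 148, 143 and 124 CPM with MSA2 (-0.66 ± 0.10 SE, adjusted p = 0.000533). Neither overlapped between the groups.

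Cytokines of innate inflammation formed the second large set of rises. Of 22 tested members, 15 were called higher, 0 lower and 7 had no call, with a median log2 fold change of 1.36. Members nearly absent from Control, such as Il23a, passed the low count filter through libraries given MSA2. The share called and the median are thus set in part by the filter. Tnf (chr17:35199381-35202007), a central inflammatory cytokine, stood at 6.24, 28.4 and 13.5 CPM in Control and 2239, 1503 and 1876 CPM with MSA2 (6.85 ± 0.46 SE, adjusted p = 1.23e-06), and at 7.56 without Control replicate 2. Il6, which acts on B and T cells, stood at 0.596, 2.0 and 0.432 CPM in Control and 120, 164 and 129.8 CPM with MSA2 (7.0 ± 0.31 SE, adjusted p = 4.37e-08), and at 8.06 without that library. Tnfsf15, which encodes the T cell costimulator TL1A, stood at 9.82, 17.8 and 14 CPM in Control and 822, 581 and 795 CPM with MSA2 (5.72 ± 0.22 SE, adjusted p = 2.11e-08). The groups did not overlap for these genes.

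The subunits of the interleukin 12 family rose by very different amounts. Il12b, the shared p40 subunit, stood at 2.35, 4.86 and 2.16 CPM in Control and 142, 189 and 178 CPM with MSA2 (5.72 ± 0.24 SE, adjusted p = 3.70e-08). Il12a, the p35 subunit that pairs with it to form interleukin 12, stood at 0.397, 0.448 and 0.260 CPM in Control and 0.631, 0.796 and 0.922 CPM with MSA2 (1.07 ± 0.30 SE, adjusted p = 0.0207), below 1 CPM throughout. That call was lost without Control replicate 1 (adjusted p = 0.0517), Control replicate 3 (0.0670), MSA2 replicate 2 (0.0546) or MSA2 replicate 3 (0.0711). Il23a, the partner of p40 in interleukin 23, rose by 3.91 ± 0.44, and Il27 by 4.67 ± 0.35. Ebi3, whose protein pairs with p28 or p35, had no call (0.10 ± 0.09 SE, adjusted p = 0.439).

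Il1a, an alarm cytokine, stood at 11.8, 15.6 and 15.7 CPM in Control and 163, 152 and 121 CPM with MSA2 (3.34 ± 0.13 SE, adjusted p = 2.59e-08), a larger rise than that of Il1b, which stood at 32.1, 47.3 and 35.5 CPM in Control and 89.8, 127 and 78.8 CPM with MSA2 (1.36 ± 0.17 SE, adjusted p = 0.000153). Il15, a growth factor for T and NK cells, and Lif rose by 1.77 ± 0.14 and 4.88 ± 0.29. Il10, the gene of an inhibitory cytokine, failed the low count filter. It had 0 counts in each Control library and 7, 10 and 3 counts in the MSA2 libraries, and no test of this change is given. The 7 members with no call were Il1rn, Csf3, Osm, Il18, Tgfb1, Ebi3 and Csf1, among which the inhibitor Il1rn stood at 515, 477 and 473 CPM in Control and 567, 517 and 589 CPM with MSA2 (adjusted p = 0.0554).

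Of 23 tested chemokines, 15 were called higher, 3 lower and 5 had no call (median 2.14). Cxcl9 and Cxcl11, nearly absent from Control, passed the low count filter through libraries given MSA2. The share called and the median are thus set in part by the filter. Cxcl10, an attractant of T cells through the receptor CXCR3, stood at 1.73, 18.7 and 1.87 CPM in Control and 1842, 1432 and 1754 CPM with MSA2 (7.76 ± 0.76 SE, adjusted p = 2.06e-05), and at 9.86 without Control replicate 2. Cxcl11 and Cxcl9, its neighbours on chromosome 5 between 92321347 and 92365485, stood at 0.0284, 0.0672 and 0.0577 CPM in Control and 13.3, 7.54 and 10.5 CPM with MSA2 (7.55 ± 0.35 SE, adjusted p = 6.55e-08) and at 0.17, 0 and 0 CPM in Control and 5.87, 1.81 and 4.31 CPM with MSA2 (6.14 ± 0.75 SE, adjusted p = 0.000115). RNA of all 3 genes was thus higher in every MSA2 library, but Cxcl9 and Cxcl11 remained at about 1 to 13 CPM where Cxcl10 reached 1432 CPM or more. The annotation used lists Cxcl11 as a polymorphic pseudogene, so its RNA may not encode a working ligand of CXCR3.

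The CC chemokines of chromosome 11 split. Ccl4, an attractant of T cells and monocytes, stood at 11.8, 34.5 and 44.9 CPM in Control and 1642, 1235 and 1390.2 CPM with MSA2 (5.55 ± 0.39 SE, adjusted p = 1.72e-06). Ccl5, another T cell attractant, stood at 18.3, 24.8 and 26.3 CPM in Control and 353, 255 and 281 CPM with MSA2 (3.68 ± 0.15 SE, adjusted p = 3.41e-08). Ccl3, Ccl2, Ccl7 and Ccl12 rose by 4.63 ± 0.46, 3.01 ± 0.36, 4.46 ± 0.32 and 4.11 ± 0.34. Within the same stretch, from 82035571 to 83664683, Ccl6 stood at 7963, 8573 and 8254 CPM in Control and 6266, 7446 and 6677 CPM with MSA2 (-0.28 ± 0.07 SE, adjusted p = 0.0148) and Ccl9 at 2162, 2218 and 1961 CPM in Control and 1646, 1983 and 1751 CPM with MSA2 (-0.24 ± 0.08 SE, adjusted p = 0.0488). These abundant myeloid chemokines fell where their neighbours rose, although the Ccl9 groups overlapped. The third called lower was Pf4 (-0.33 ± 0.11 SE, adjusted p = 0.0398), whose groups overlapped as well. Only 1 member was called lower without Control replicate 2, MSA2 replicate 1 or MSA2 replicate 3. Ccl22, made by mature dendritic cells, rose by 1.24 ± 0.15, and Ccl17, with which it shares a receptor, had no call (0.17 ± 0.09 SE, adjusted p = 0.188). The neutrophil attractants Cxcl1, Cxcl2 and Cxcl3 rose by 4.42 ± 0.44, 3.76 ± 0.29 and 0.39 ± 0.11.

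Among chemoattractant receptors 6 of 17 tested members were called higher, 4 lower and 7 had no call (median -0.10). Ccr7, the receptor that leads mature dendritic cells to lymph nodes, stood at 59.0, 70.5 and 80.1 CPM in Control and 263, 217 and 169 CPM with MSA2 (1.63 ± 0.15 SE, adjusted p = 1.51e-05). Ccrl2, a scavenging receptor that presents chemerin, stood at 10.3, 16.9 and 17.6 CPM in Control and 346, 462 and 373 CPM with MSA2 (4.72 ± 0.19 SE, adjusted p = 3.43e-08). Both were without overlap. Gpr183, which positions cells along oxysterol gradients, fell from 34.8, 28.5 and 34.7 to 18.3, 15.8 and 12.5 CPM (-1.07 ± 0.13 SE, adjusted p = 8.90e-05), and C3ar1, a complement receptor, fell as well (-0.79 ± 0.07 SE, adjusted p = 9.04e-06), whereas C5ar1 rose (1.38 ± 0.08 SE, adjusted p = 5.13e-07). Ccr2, the receptor of blood monocytes, had no call (-0.10 ± 0.08 SE, adjusted p = 0.441).

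Costimulation and maturation genes were called higher in 19 of 22 tested members, with 1 lower and 2 without a call (median 1.12). Cd40, the receptor for T cell help, stood at 9.31, 9.89 and 8.82 CPM in Control and 46.2, 47.3 and 42.4 CPM with MSA2 (2.28 ± 0.08 SE, adjusted p = 1.68e-08). Cd86, which costimulates T cells through CD28, stood at 107, 105 and 108 CPM in Control and 222, 229 and 203 CPM with MSA2 (1.03 ± 0.06 SE, adjusted p = 5.48e-07), a 2.05-fold rise. Cd80, its relative, stood at 58.3, 69.0 and 84.2 CPM in Control and 199, 200.3 and 206 CPM with MSA2 (1.52 ± 0.11 SE, adjusted p = 1.79e-06). Every MSA2 library was above every Control library for these genes. The T cell costimulators Tnfsf9 (4-1BB ligand), Tnfsf4 (OX40 ligand) and Cd70 rose by 3.41 ± 0.13, 2.35 ± 0.13 and 3.19 ± 0.36, with Cd70 below 3 CPM in each library. Markers of mature dendritic cells also rose, among them Fscn1, which bundles actin in dendrites (2.15 ± 0.23), Marcksl1 (2.41 ± 0.15) and Cd83 (1.24 ± 0.14). The exception was Icosl, the ligand of the T cell receptor ICOS, at 37.7, 31.3 and 33.7 CPM in Control and 10.02, 13.8 and 11.2 CPM with MSA2 (-1.54 ± 0.11 SE, adjusted p = 2.37e-06).

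Inhibitory ligands and receptors went both ways, with 5 of 15 tested members called higher, 4 lower and 6 with no call (median -0.02). The shares over all tested genes were 14.6% higher and 13.5% lower. Cd274, which encodes PD-L1, stood at 244, 273 and 245 CPM in Control and 532, 495 and 586 CPM with MSA2 (1.08 ± 0.08 SE, adjusted p = 2.12e-06), without overlap. Pdcd1lg2, the gene of PD-L2, had no call (-0.14 ± 0.06 SE, adjusted p = 0.11). Nectin2 and Pvr, ligands of the receptors TIGIT and DNAM-1, rose by 2.43 ± 0.18 and 1.70 ± 0.13. Vsir, which encodes VISTA, Cd276, which encodes B7-H3, and Sirpa, the receptor for CD47, fell, with log2 fold changes of -0.60 ± 0.07, -0.68 ± 0.10 and -0.43 ± 0.06. Ido1 was too low to test, with 24 counts over Control and 35 over MSA2.

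In the MHC class I list of antigen presentation 11 of 22 tested members were called higher and 0 lower, all by less than 1 log2 unit, with a median of 0.20, and 0 passed the test against 1.5-fold. Tapbp, the tapasin of the peptide loading complex, stood at 232, 209 and 219.9 CPM in Control and 368, 294 and 331 CPM with MSA2 (0.59 ± 0.08 SE, adjusted p = 0.00032). H2-Q7 and H2-Q6, non-classical genes that share reads, rose by 0.87 ± 0.14 and 0.67 ± 0.11. The classical genes H2-K1 (0.03 ± 0.09 SE, adjusted p = 0.837) and H2-D1 (-0.16 ± 0.08 SE, adjusted p = 0.154), B2m (-0.03 ± 0.07 SE, adjusted p = 0.805) and the transporter Tap1 (0.17 ± 0.10 SE, adjusted p = 0.229) had no call. With upper quartile factors 9 members were higher and 1 lower.

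In MHC class II, 1 of 15 tested members was called higher, 2 lower and 12 had no call (median 0.13). Over all tested genes 14.6% were called higher and 13.5% lower. H2-Ab1 stood at 2737, 2327 and 2547 CPM in Control and 2782, 2721 and 2559 CPM with MSA2 (0.08 ± 0.07 SE, adjusted p = 0.452), and the values of the groups overlapped. Cd74, the invariant chain, and H2-Aa gave log2 fold changes of 0.04 ± 0.08 and 0.14 ± 0.07. The member called higher was H2-Eb2, at 4.77, 3.99 and 4.27 CPM in Control and 11.1, 9.70 and 9.54 CPM with MSA2 (1.22 ± 0.11 SE, adjusted p = 9.38e-06). Ctss, the protease that trims the invariant chain, fell (-0.37 ± 0.07 SE, adjusted p = 0.00301), as did Ifi30, a thiol reductase (-0.25 ± 0.09 SE, adjusted p = 0.049), whose call was lost without Control replicate 1 or 3 or MSA2 replicate 2 or 3. Without Control replicate 1 the list had 3 members higher and 1 lower, and without MSA2 replicate 2 it had 2 higher.

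NF-κB subunits and their feedback inhibitors were called higher in 16 of 20 tested members, 0 lower and 4 with no call (median 0.63). Tnfaip3, which encodes the inhibitor A20, stood at 30.5, 38.6 and 49.0 CPM in Control and 769, 647 and 764 CPM with MSA2 (4.21 ± 0.16 SE, adjusted p = 1.78e-08). Nfkbia, the gene of the inhibitor IκBα, stood at 58.6, 66.8 and 56.8 CPM in Control and 409, 348 and 345 CPM with MSA2 (2.59 ± 0.09 SE, adjusted p = 1.70e-08). Nfkbiz, an inducible nuclear member, stood at 3.26, 5.78 and 2.71 CPM in Control and 95.9, 102 and 93.8 CPM with MSA2 (4.6 ± 0.20 SE, adjusted p = 4.11e-08). Groups were apart for all 3. The subunits themselves rose less, with Rel at 1.91 ± 0.11, Nfkb2 at 0.70 ± 0.12, Relb at 0.72 ± 0.10, Nfkb1 at 0.58 ± 0.08 and Rela at 0.28 ± 0.09. With upper quartile factors 13 were higher and 2 lower, and without Control replicate 2 the counts were 14 and 0.

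Immediate early genes split, with 8 of 23 tested members called higher, 7 lower and 8 without a call (median -0.06). Fos rose (3.10 ± 0.35 SE, adjusted p = 6.31e-05), and so did Egr1 (2.80 ± 0.38 SE, adjusted p = 0.000223) and Ier3 (1.97 ± 0.14 SE, adjusted p = 1.99e-06). Fosl2 (-1.22 ± 0.10 SE, adjusted p = 6.77e-06), Egr2 (-1.98 ± 0.15 SE, adjusted p = 2.50e-06) and Dusp5, a phosphatase of the kinase ERK (-1.70 ± 0.17 SE, adjusted p = 2.30e-05), fell. Egr2 stood at 71.3, 61.4 and 87.9 CPM in Control and 18.3, 22.1 and 15.1 CPM with MSA2, while its relative Egr3 stood at 1.59, 2.69 and 4.27 CPM in Control and 23.6, 9.44 and 10.6 CPM with MSA2 (2.34 ± 0.38 SE, adjusted p = 0.000783).

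Of 23 pattern recognition receptors and adaptors, 8 were called higher, 3 lower and 12 had no call (median 0.09). The shares over all tested genes were 14.6% higher and 13.5% lower. Tlr2, the receptor for bacterial lipopeptides, stood at 158, 198 and 196 CPM in Control and 764, 698 and 699.7 CPM with MSA2 (1.97 ± 0.10 SE, adjusted p = 9.33e-08). Aim2, a sensor of DNA that forms inflammasomes, stood at 41.5, 41.1 and 41.4 CPM in Control and 105, 106 and 106 CPM with MSA2 (1.36 ± 0.07 SE, adjusted p = 1.15e-07). Tlr9 (1.08 ± 0.16) and Tlr3 (0.80 ± 0.14), which read nucleic acids in endosomes, rose, while Tlr13 fell (-0.42 ± 0.08 SE, adjusted p = 0.0025). Tlr4, the lipopolysaccharide receptor, had no call (-0.28 ± 0.14 SE, adjusted p = 0.164), and its partner Ly96 rose (0.48 ± 0.10).

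Metabolic enzymes of activated myeloid cells were called higher in 7 of 21 tested members, lower in 2 and without a call in 12 (median 0.15). Acod1, which makes itaconate, stood at 97.5, 121 and 103 CPM in Control and 1251, 946 and 1242 CPM with MSA2 (3.42 ± 0.12 SE, adjusted p = 1.71e-08). Ptgs2, the inducible enzyme of prostaglandin synthesis, stood at 0.766, 1.59 and 1.18 CPM in Control and 33.4, 51.2 and 30.5 CPM with MSA2 (5.0 ± 0.27 SE, adjusted p = 2.12e-07). Ch25h, which makes 25-hydroxycholesterol, stood at 1.59, 1.82 and 3.09 CPM in Control and 68.7, 41.1 and 44.8 CPM with MSA2 (4.58 ± 0.26 SE, adjusted p = 3.06e-07). These 3 did not overlap, whereas Nos2 (0.48 ± 0.44 SE, adjusted p = 0.471) and Arg1 (-0.34 ± 0.48 SE, adjusted p = 0.662) had no call. The 2 members that fell were Hmox1 (-0.57 ± 0.06 SE, adjusted p = 5.77e-05) and Cybb (-0.23 ± 0.07 SE, adjusted p = 0.0387). The Cybb call was lost without Control replicate 1, 2 or 3 or MSA2 replicate 1.

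Cholesterol genes did not move together, with 6 of 22 tested members called higher, 7 lower and 9 without a call (median -0.04). Fdft1 (0.93 ± 0.08) and Insig1 (0.72 ± 0.13), of synthesis and its control, rose, and Hmgcs1 (-0.53 ± 0.09) and Sqle (-0.34 ± 0.06), of the same route, fell. The efflux pumps Abca1 and Abcg1 both fell, Abcg1 from 348, 288 and 297 to 173, 163 and 150.4 CPM (-0.94 ± 0.08 SE, adjusted p = 8.08e-06). In glycolysis 4 of 18 tested members were called higher, 2 lower and 12 had no call (median -0.10). These counts are near the shares over all tested genes, 14.6% higher and 13.5% lower. Hk2, the inducible hexokinase, rose from 41.8, 48.8 and 58.8 to 107, 82.8 and 89.2 CPM (0.90 ± 0.12 SE, adjusted p = 0.000223), and Pfkfb3, which drives glycolytic flux, by 0.79 ± 0.10. Pkm and Hk3 fell (-0.24 ± 0.06 and -0.31 ± 0.07), and Ldha had no call (-0.04 ± 0.08 SE, adjusted p = 0.755). The number of glycolysis genes called lower was 6 with upper quartile factors, 5 without MSA2 replicate 1 and 1 without Control replicate 1 or MSA2 replicate 3. Of 25 tested nuclear genes of the respiratory chain and ATP synthase, 1 was called higher, Cycs (0.22 ± 0.07 SE, adjusted p = 0.029), and 0 lower, with a median of -0.01. The Cycs call was lost with upper quartile factors, under which 3 members were lower, and without Control replicate 1 or 2 or MSA2 replicate 2 or 3.

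Cell death genes were called higher in 10 of 25 tested members, lower in 2 and without a call in 13 (median 0.13). Pmaip1, which encodes the killer protein Noxa, stood at 49.5, 46.8 and 63.4 CPM in Control and 587, 382 and 470.3 CPM with MSA2 (3.17 ± 0.16 SE, adjusted p = 1.13e-07). Bbc3, which encodes Puma, stood at 23.3, 22.2 and 19.5 CPM in Control and 74.4, 80.7 and 91.0 CPM with MSA2 (1.92 ± 0.09 SE, adjusted p = 9.79e-08). Mcl1, the survival protein that Noxa binds, fell from 674, 664 and 556 to 332, 433 and 404 CPM (-0.70 ± 0.10 SE, adjusted p = 0.000429), while the survival genes Bcl2a1b and Bcl2a1d, near copies that share reads, rose by 0.59 ± 0.07 and 0.64 ± 0.07. The other member called lower was Ripk1, a kinase of death receptor signalling (-0.18 ± 0.06 SE, adjusted p = 0.0313), and 1 member was lower without Control replicate 1 or 3 or MSA2 replicate 3.

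Among stress genes 5 of 18 tested members were called higher, 5 lower and 8 had no call (median -0.03). Ppp1r15a, the gene of GADD34, which lets translation resume after stress, stood at 33.6, 53.4 and 34.4 CPM in Control and 1238, 1214 and 1262 CPM with MSA2 (4.93 ± 0.17 SE, adjusted p = 1.68e-08). Of the factors of the integrated stress response, Atf3 stood at 116, 122 and 201 CPM in Control and 595, 383 and 413 CPM with MSA2 (1.66 ± 0.21 SE, adjusted p = 0.00015), without overlap, while Atf4 (-0.00 ± 0.10 SE, adjusted p = 0.98) and Ddit3 (-0.35 ± 0.18 SE, adjusted p = 0.179) had no call. Against 1.5-fold 2 members of the list were higher and 0 lower. Xbp1 (-0.43 ± 0.07 SE, adjusted p = 0.00126) and Sesn2 (-0.60 ± 0.11 SE, adjusted p = 0.00159) fell.

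Cell cycle genes were called higher in 14 of 30 tested members and lower in 0, with a median of 0.18. The largest changes belonged to Ccne2, a cyclin of entry into S phase (1.08 ± 0.14 SE, adjusted p = 0.000153), and to Cdkn1a, the gene of the cycle inhibitor p21, which stood at 278, 286 and 298 CPM in Control and 749, 432 and 554 CPM with MSA2 (1.01 ± 0.15 SE, adjusted p = 0.000497). Ccnd2, another cyclin, followed (0.83 ± 0.15 SE, adjusted p = 0.00205). The other called members rose by less than 1 log2 unit, Pcna by 0.45 ± 0.07 and Cdk1 by 0.25 ± 0.06, and Mki67, a marker of dividing cells, had no call (0.18 ± 0.08 SE, adjusted p = 0.123). With upper quartile factors 12 were higher and 2 lower, and 1 was lower without MSA2 replicate 1. In the Myc and ribosome biogenesis list 6 of 20 tested members were called higher, 2 lower and 12 had no call (median 0.10). Over all tested genes 14.6% were called higher and 13.5% lower. The list was led by Mxd1, an antagonist of Myc, at 32.1, 40.8 and 33.6 CPM in Control and 132, 96.6 and 125 CPM with MSA2 (1.73 ± 0.12 SE, adjusted p = 1.64e-06). Myc itself gave 0.22 ± 0.32 SE, adjusted p = 0.662. The members called lower, Polr1a (-0.23 ± 0.08 SE, adjusted p = 0.0455) and Rrp12 (-0.26 ± 0.08 SE, adjusted p = 0.0413), work in ribosome production, and 0 were lower without Control replicate 3 or MSA2 replicate 2 and 1 without any of the other 4 libraries.

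The PI3K list, which holds the target of the study's second drug, had 4 of 21 tested members called higher, 3 lower and 14 without a call (median 0.02). These counts are near the shares over all tested genes (14.6% higher, 13.5% lower), so they say nothing particular of the list, and 0 passed against 1.5-fold. Pik3cg, the catalytic subunit of PI3Kγ, stood at 231, 184 and 210.3 CPM in Control and 168, 171 and 173 CPM with MSA2 (-0.29 ± 0.08 SE, adjusted p = 0.0176). The call was lost without Control replicate 1 (adjusted p = 0.0829). Pik3cd, the catalytic subunit of PI3Kδ, fell (-0.34 ± 0.07 SE, adjusted p = 0.00275), and Pik3cb (0.40 ± 0.12 SE, adjusted p = 0.0257) and the regulatory subunits Pik3r1 (0.40 ± 0.07 SE, adjusted p = 0.00136) and Pik3r6 (0.44 ± 0.10 SE, adjusted p = 0.0077) rose. With upper quartile factors 6 members were lower.

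The 8 largest fold falls among called genes of at least 5 CPM without overlap between the groups were those of Id3, Trib1, Fbxo32, Klf10, Adra2a, Txnip, S1pr3 and Cebpb. Id3, which blocks E-protein factors (chr4:136143497-136145755), stood at 18.4, 20.1 and 15.5 CPM in Control and 0.973, 1.93 and 0.672 CPM with MSA2 (-3.82 ± 0.29 SE, adjusted p = 3.41e-06), and at -4.45 without MSA2 replicate 2. Trib1, a pseudokinase that marks C/EBP factors for degradation, stood at 12.1, 11.1 and 25.9 CPM in Control and 2.60, 2.88 and 0.947 CPM with MSA2 (-2.89 ± 0.38 SE, adjusted p = 0.000207). Cebpb, one of those myeloid factors and a gene of 1 exon (chr2:167688915-167690418), stood at 119, 134 and 126 CPM in Control and 23.5, 28.3 and 22.3 CPM with MSA2 (-2.35 ± 0.10 SE, adjusted p = 4.19e-08). All 3 were without overlap because the choice required it. Fbxo32, a ubiquitin ligase subunit, stood at 88.3, 84.4 and 72.9 CPM in Control and 6.71, 15.8 and 15.9 CPM with MSA2 (-2.66 ± 0.24 SE, adjusted p = 1.05e-05). Klf10, a zinc finger factor induced by TGF-β, stood at 35.2, 28.9 and 27.2 CPM in Control and 5.63, 4.30 and 5.75 CPM with MSA2 (-2.56 ± 0.13 SE, adjusted p = 1.45e-07). Txnip, which binds thioredoxin and limits glucose uptake, stood at 572, 372 and 153 CPM in Control and 75.8, 55.3 and 79.4 CPM with MSA2 (-2.39 ± 0.36 SE, adjusted p = 0.000487). Its controls were widely spread, and the choice of these genes required them to lie above every MSA2 library. The receptors Adra2a (-2.44 ± 0.17 SE, adjusted p = 1.24e-06) and S1pr3 (-2.39 ± 0.33 SE, adjusted p = 0.000284) completed the 8, and S1pr3 gave -3.01 without MSA2 replicate 2.

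**Figure D4:**
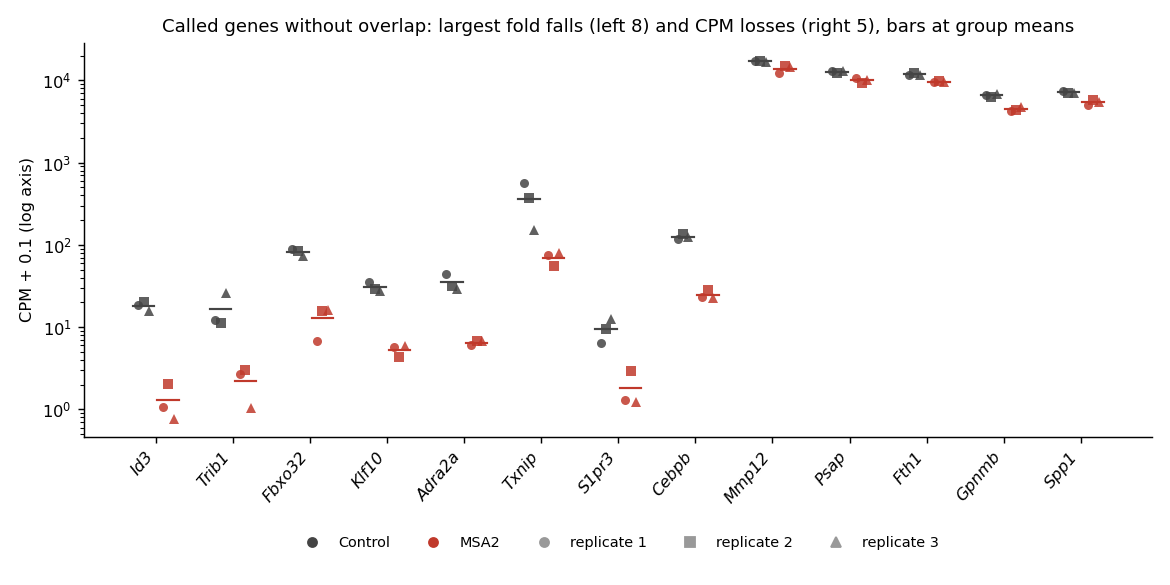
Each point is the level of 1 gene in 1 library, as CPM + 0.1 on a log axis, grey for Control and red for MSA2, with bars at the group means. Only called genes without overlap between the groups were ranked. The 8 with the largest fold falls at a mean of at least 5 CPM (left) lie at 0.67 to 572 CPM, and the 5 with the largest losses in CPM (right) lie far higher in CPM and fall by less than 1 log2 unit.

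The 5 largest losses in mean CPM among called genes without overlap were those of Mmp12, Psap, Fth1, Gpnmb and Spp1. Lyz2, which had no call and overlapped (-0.28 ± 0.10 SE, adjusted p = 0.0536), is outside this choice, with means of 14735 CPM in Control and 12146 CPM with MSA2. Mmp12, the macrophage elastase, stood at 17398, 17394 and 16504 CPM in Control and 12220, 14978 and 14459 CPM with MSA2 (-0.30 ± 0.08 SE, adjusted p = 0.0164), a call that was lost without Control replicate 1 (adjusted p = 0.0632). Psap, the precursor of lysosomal saposins, stood at 13046, 12201 and 13171 CPM in Control and 10605, 9311 and 10118 CPM with MSA2 (-0.36 ± 0.07 SE, adjusted p = 0.00288). Gpnmb, a glycoprotein of lysosome-rich macrophages, stood at 6688, 6277 and 6894 CPM in Control and 4263, 4357 and 4731 CPM with MSA2 (-0.57 ± 0.07 SE, adjusted p = 8.46e-05). Fth1, ferritin heavy chain, and Spp1, osteopontin, gave -0.31 ± 0.06 and -0.42 ± 0.07. By the same choice the 5 largest gains were in Ifit1, Tnf, Cxcl10, Ifit2 and Fgl2. Fgl2, a fibrinogen-like protein of activated immune cells, stood at 198, 200.4 and 187 CPM in Control and 1828, 1359 and 1858 CPM with MSA2 (3.11 ± 0.13 SE, adjusted p = 4.19e-08).

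Lysosomal genes were called lower in 11 of 24 tested members and higher in 1, with 12 without a call (median -0.19), and 1 was lower against 1.5-fold. The cathepsins Ctsd (-0.47 ± 0.06 SE, adjusted p = 0.0002), Ctsb (-0.27 ± 0.06 SE, adjusted p = 0.00602), Ctsl (-0.33 ± 0.06 SE, adjusted p = 0.0022) and Ctsk (-0.82 ± 0.09 SE, adjusted p = 4.58e-05) fell, as did Tfeb, a factor that drives lysosomal genes, at 22, 19.6 and 21.3 CPM in Control and 11.7, 14.1 and 11.2 CPM with MSA2 (-0.76 ± 0.10 SE, adjusted p = 0.000133). Ctsc, which activates granule proteases, stood at 533, 502 and 511 CPM in Control and 859, 818 and 858 CPM with MSA2 (0.71 ± 0.06 SE, adjusted p = 1.04e-05), the exception. Lamp1 gave -0.06 ± 0.06 with no call. In NRF2 targets 9 of 18 tested members were called lower and 1 higher (median -0.20), and 1 lower against 1.5-fold. Osgin1, an oxidative stress gene, stood at 9.73, 13.9 and 15.1 CPM in Control and 2.18, 3.13 and 2.17 CPM with MSA2 (-2.34 ± 0.19 SE, adjusted p = 4.73e-06). Srxn1 (-0.61 ± 0.06), Hmox1 (-0.57 ± 0.06) and Gclm (-0.50 ± 0.07) followed, while Slc7a11 (0.26 ± 0.11 SE, adjusted p = 0.0972), Nqo1 (-0.23 ± 0.09 SE, adjusted p = 0.0862) and Nfe2l2, the gene of NRF2 itself (0.14 ± 0.12 SE, adjusted p = 0.437), had no call. The member called higher, Mafg (0.31 ± 0.09 SE, adjusted p = 0.0314), lost its call with upper quartile factors and without Control replicate 1 or 2 or MSA2 replicate 1 or 3, and 2 members were higher without Control replicate 3.

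Among uptake receptors 7 of 22 tested lectins and scavenger receptors were called lower and 1 higher (median -0.17), beside 13.5% and 14.6% over all tested genes. Against 1.5-fold 0 of these passed. Lrp1, a receptor for debris and lipoproteins, fell from 321, 314 and 278 to 168, 175 and 204 CPM (-0.74 ± 0.08 SE, adjusted p = 6.08e-05), and Mrc1, the mannose receptor, gave -0.45 ± 0.08 SE, adjusted p = 0.00106. Ly75, the endocytic receptor DEC-205 of dendritic cells, rose (0.59 ± 0.10 SE, adjusted p = 0.000832), with 2 members higher without Control replicate 1 or MSA2 replicate 2. Of 18 tested Fc and complement genes 4 were called lower and 1 higher (median -0.13), with Fcgr3 (-0.31 ± 0.07) and Fcgr2b (-0.27 ± 0.08) lower, Fcgr4 higher (0.50 ± 0.11), and C1qa without a call (-0.13 ± 0.09 SE, adjusted p = 0.336). Integrins and matrix proteases had 5 of 24 tested members called higher and 8 lower (median -0.05). Itga4 (0.93 ± 0.06), Cd44 (0.72 ± 0.09) and Vcam1 (1.05 ± 0.15) rose, and the β2 integrin chain Itgb2 (-0.38 ± 0.06) fell together with its partner Itgam (-0.29 ± 0.07).

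Of 15 tested dendritic cell markers 6 were called higher and 4 lower (median 0.35). One of those higher, Xcr1, was nearly absent from Control and passed the low count filter through libraries given MSA2. Itgax stood at 1856, 1651 and 1889 CPM in Control and 1346, 1270.2 and 1397 CPM with MSA2 (-0.43 ± 0.07 SE, adjusted p = 0.00106). Xcr1, the chemokine receptor of cross-presenting dendritic cells, stood at 0.0851, 0.202 and 0.231 CPM in Control and 3.13, 3.50 and 3.11 CPM with MSA2 (4.20 ± 0.26 SE, adjusted p = 5.24e-07). Clec9a, a receptor of the same subset, went the other way, at 6.89, 6.64 and 6.66 CPM in Control and 4.08, 3.35 and 4.68 CPM with MSA2 (-0.75 ± 0.13 SE, adjusted p = 0.00161). Both groups of values were apart, and 2 genes that mark 1 subset thus moved in opposite directions. Batf3, a factor of that subset, had no call (0.35 ± 0.13 SE, adjusted p = 0.0696). Flt3 stood at 0.312, 0.247 and 0.260 CPM in Control and 0.842, 0.740 and 0.374 CPM with MSA2 (1.27 ± 0.37 SE, adjusted p = 0.0241), a call lost without any 1 of Control replicates 1, 2 and 3 and MSA2 replicates 1 and 2. Of 15 tested macrophage markers 2 were called higher and 3 lower (median -0.14), near the 14.6% and 13.5% over all tested genes, and 0 passed against 1.5-fold. Csf1r stood at 944, 859 and 907 CPM in Control and 694, 678 and 717 CPM with MSA2 (-0.37 ± 0.06 SE, adjusted p = 0.000933), Cd68 fell (-0.44 ± 0.06 SE, adjusted p = 0.000246) and Adgre1, which encodes F4/80, had no call (-0.19 ± 0.07 SE, adjusted p = 0.0648). The members called higher were Cd14 (0.41 ± 0.10 SE, adjusted p = 0.0121) and Ly6c2 (0.34 ± 0.10 SE, adjusted p = 0.0256), of monocytes. Neither was called without Control replicate 1, 1 of them was without Control replicate 3 or MSA2 replicate 2 or 3, and 5 members were lower without MSA2 replicate 2.

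Neutrophil markers depended on Control replicate 2. With all libraries 0 of 14 tested members were called higher and 1 lower, Mmp8 (-0.34 ± 0.07 SE, adjusted p = 0.0039), while 9 were called higher and 2 lower without Control replicate 2, 1 higher without MSA2 replicate 2 and 7 higher with no filter on low counts. S100a8, an abundant protein of neutrophils and monocytes, stood at 68.5, 126 and 43.2 CPM in Control and 135, 102 and 148 CPM with MSA2 (0.69 ± 0.30 SE, adjusted p = 0.117), with Control replicate 2 in the range of MSA2. The summed level of the 15 markers was 869, 995 and 728 CPM in Control and 865, 778 and 918 CPM with MSA2, and Mmp8 made up most of it. The part of neutrophil RNA in the other changes was not tested. Mast cell and basophil markers summed to 13 to 20.1 CPM in Control and 19.7 to 28.2 CPM with MSA2. Hdc, the histamine-forming enzyme, rose from 5.08, 4.51 and 3.49 to 15.5, 12.1 and 13 CPM (1.63 ± 0.14 SE, adjusted p = 9.42e-06), and Gata2 fell (-1.04 ± 0.13 SE, adjusted p = 0.000103), while Cpa3, a protease of mast cells, had no call (0.26 ± 0.36 SE, adjusted p = 0.647). Of T cell markers, 5 of 12 could be tested, with Lat (-0.61 ± 0.13 SE, adjusted p = 0.00527) and Cd4 (-0.84 ± 0.25 SE, adjusted p = 0.0286) lower and Cd8a higher (1.72 ± 0.51 SE, adjusted p = 0.0278), and Trac had 2 counts over Control and 1 over MSA2. The Cd8a call was lost without Control replicate 1 or 2, the gene was too low to test without MSA2 replicate 1 or 2, and the Cd4 call without Control replicate 1 or 3 or MSA2 replicate 2 or 3. Of B cell markers 1 of 5 tested, Cd22, was called lower (-0.67 ± 0.09 SE, adjusted p = 0.000294), of NK cell markers 0 of 2, and of red cell precursor markers 1 of 1, Hbb-bt, higher at 3 CPM or less. Fibroblast and endothelial markers had 2 of 8 tested called higher and 1 lower, namely Col1a1, Pecam1 and Cdh5, all under 7 CPM, and 1 was higher without Control replicate 1 or 3 or MSA2 replicate 1 or 3.

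**Figure D5:**
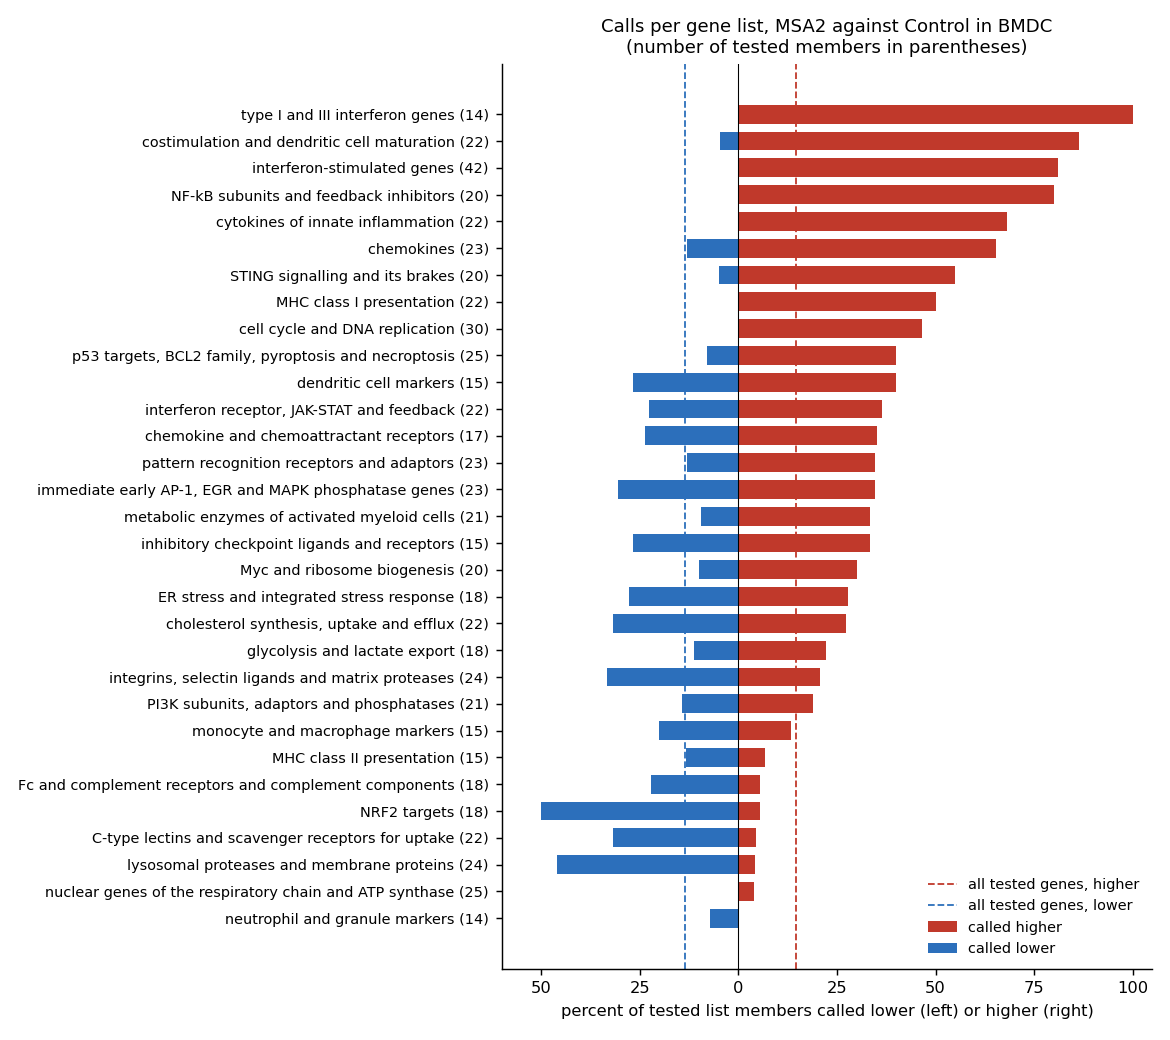
Bars give the percent of tested members called higher (right, red) or lower (left, blue) for the 31 gene lists with at least 14 tested members, and dashed lines the percent over all 14613 tested genes (14.6% higher, 13.5% lower). Interferons, maturation, interferon-stimulated and NF-κB genes reach furthest to the right, and lysosomal genes and NRF2 targets furthest to the left. The interferon genes passed the low count filter through libraries given MSA2, alone or with IPI-549. Their bar is therefore not comparable with the dashed lines. Cxcl9, Cxcl11, Il23a and Xcr1, in other lists, passed the filter in the same way.

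The response of BMDC was set against that of B cells to the same drug by testing the difference of the log2 fold changes in 1 model of all 17 libraries. Of 17739 genes tested, 6558 differed (37%), with 2888 changes greater in BMDC (16.3%) and 3670 smaller (20.7%). The library names of B cells and BMDC also differ in a prefix of unstated meaning, which cannot be told apart from cell type, and markers of other cells differed within the B cell arm, where the T cell markers summed to 62.7 to 83.3 CPM in Control and 1120 to 1441 CPM with MSA2. The macrophage markers Csf1r and Cd14 averaged 3.38 and 1.41 CPM in B cell Control and 225 and 97.5 CPM in B cell MSA2. The B cell marker Cd22 averaged 715 and 463 CPM in these groups. Values for B cells below are thus those of the B cell libraries, and the part of other cells in the differences was not tested. Il12b rose in BMDC and had no call in B cells (log2 fold change 0.29), a difference of 5.44 ± 0.39 SE, adjusted p = 2.46e-09. Tnf rose in both, by 6.85 and 3.44, a difference of 3.43 ± 0.61 SE, adjusted p = 0.000205. Cd40 and Cd86 rose in BMDC and fell in B cells (-0.78 and -0.75), with differences of 3.06 ± 0.17 SE, adjusted p = 8.44e-11 and 1.79 ± 0.20 SE, adjusted p = 1.43e-06. Cd274 differed by 1.22 ± 0.14 SE, adjusted p = 1.29e-06 and Ccr7 by 1.94 ± 0.22 SE, adjusted p = 1.24e-06. Isg15 rose more in BMDC (1.80 ± 0.34 SE, adjusted p = 0.000369), whereas Il1b rose less (-2.69 ± 0.30 SE, adjusted p = 1.04e-06).

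For other key genes the difference did not pass. Irf7 rose by 1.29 in BMDC and 1.29 in B cells (difference 0.01 ± 0.18 SE, adjusted p = 1). Ifnb1 had no counts in B cell Control and a mean of 0.960 ± 0.230 CPM (SD, n = 3) with MSA2, against 1025 ± 66.9 CPM with MSA2 in BMDC, so a difference of fitted folds has no meaning for it. Ifit1 gave -0.98 ± 0.86 SE, adjusted p = 0.411, and without Control replicate 2 of BMDC its sign turned, to 1.09 (adjusted p = 0.0162). Cxcl10 gave 1.15 ± 0.78 SE, adjusted p = 0.278, and 3.24 without that library (adjusted p = 8.91e-08), and Il6 gave 2.10 ± 0.82 SE, adjusted p = 0.054, and 3.15 without it (adjusted p = 0.000666). With all libraries kept, the Il6 difference also passed with no filter on low counts (2.11), DESeq2 (2.14), limma-voom (2.47) and the replicate block (2.14), and that of Cxcl10 with no filter (1.13) and limma-voom (1.95). The cause of these shifts was not tested.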

How the data were processed

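RNA was sequenced from mouse cells, and the 6 compared libraries are 3 BMDC Control and 3 BMDC MSA2, grouped by title. The deposited tables give expected counts per gene, which the authors estimated. Per the submitters' processing notes the tools were cutadapt 4.8, STAR 2.7.8a, RSEM 1.3.3, FastQC 0.11.8 and MultiQC 1.20, with the build GRCm38, and the annotation release and strand setting are not given in the sources used here. Without strand, a gene and its antisense partner cannot be told apart.

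The values were already whole and were used as such. The 4 rows for reporter sequences, 0.00463 to 0.00635% of counts, were left out. Library totals of 34757983 to 73163252 set the precision, and counting intervals cover counting error only. Genes were filtered with filterByExpr and tested with edgeR 4.0.16 (R 4.3.3, limma 3.58.1) by the quasi-likelihood test on all 8 BMDC libraries, with trimmed mean factors and Benjamini-Hochberg adjustment, called under 0.05. The difference between cell types was a contrast over all 17 libraries in 6 groups. On simulated data with 14613 genes, the BMDC test called 64.2%, 76.1% and 95.5% of genes changed by 1.5-fold, 2-fold and 4-fold, and 5.99% of its calls were unchanged genes. Over 17739 genes the cell type contrast called 14.9%, 53.7% and 71.2%, and 5.10% of its calls were unchanged. Each simulation changed only 67, 67 and 66 genes at these folds, whereas 28.2% and 37% of genes were called in the data. No simulated library was made to differ as Control replicate 2 does, so these rates may not carry over.

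Alternatives were other library factors, no filter or a stricter one, DESeq2 1.42.0, limma-voom, the title suffix as a replicate block, only the compared groups, a test against 1.5-fold, and each library left out. The comparison and the 37 lists (738 of 741 symbols in the table) were chosen with earlier results of these data known, so no list was tested as a set. Genes named were 21 key genes, the 8 largest called fold changes each way at 5 CPM or more without overlap, the 5 largest gains and losses in CPM, and up to 4 called members of each list by smallest p, plus up to 2 of the opposite direction. Other list members were named after their values were seen. Positions come from GENCODE M21 on GRCm38 and promoters from RefSeq on GRCm38.p6, where 129 of 168 named genes had a window. Tables were joined with Python 3.11.15. Single values of some list members are not reported here.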

Additional observations from a re-analysis of the deposited data

Results flagged for a closer look

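For 12 of the 21 key genes the change with MSA2 differed between BMDC and B cells by a test of the difference itself (edgeR's quasi-likelihood test, log2 fold change in BMDC minus that in B cells, Benjamini-Hochberg adjustment over all genes). Over all genes tested, 6558 of 17739 differed (37%), and the count of key genes is to be read beside this share. Cell type cannot be told apart from a prefix of unstated meaning in the library names. In the B cell libraries T cell markers summed to 62.7 to 83.3 CPM in Control and 1120 to 1441 CPM with MSA2. The macrophage marker Cd14 averaged 1.41 CPM in B cell Control and 97.5 CPM in B cell MSA2. The part of other cells in these differences was not tested.

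Greater in BMDC were Il12b (5.44, adjusted p = 2.46e-09), Tnf (3.43, 0.000205), Cd40 (3.06, 8.44e-11), Il12a (2.08, 6.42e-05), Ccr7 (1.94, 1.24e-06), Isg15 (1.80, 0.000369), Cd86 (1.79, 1.43e-06), Cd274 (1.22, 1.29e-06) and Flt3 (1.0, 0.0394). Il12a rose in BMDC (1.07) and fell in B cells (-1.01). Smaller in BMDC were Csf1r (-6.42, 3.62e-11), Il1b (-2.69, 1.04e-06) and Ccl5 (-0.64, 0.0334). Csf1r, a receptor of macrophages, fell in BMDC (-0.37) and rose by 6.04 in the B cell libraries. Ccl5 rose in both, by 3.68 and 4.32. The differences of Ccl5 and Flt3 each lost their call in 9 of the alternatives run.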

How the results depend on the processing

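The genes called higher and lower with MSA2 numbered 2140 and 1978, and 576 and 196 when tested against a change of 1.5-fold, which asks for more. Leaving out 1 library at a time gave 1612 to 2016 higher and 1321 to 1778 lower, with fewer samples in each fit. The genes called in both an alternative and the fit reported kept their direction in all 15 alternatives. Of 2497 values of 167 named genes, 2338 kept direction and call, 158 lost the call (81 of them against 1.5-fold), 1 gained it and 0 reversed. The title suffix as a replicate block gave 2012 higher and 1757 lower. No pairing by suffix was seen. Deviations from the group means correlated at -0.16 to 0.08 between same-suffix Control and MSA2 libraries, and 2 of 8 libraries correlated best with their own suffix. Deviations within groups of 2 or 3 libraries depend on each other, so this check cannot exclude pairing. DESeq2 gave no adjusted p for Cxcl10 (7.82) and Ifnb1 (8.10).

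The genes whose change differed between cell types numbered 6558, 6663 with the replicate block and 5747 to 6546 with 1 library left out. The difference of Ifit1 (BMDC minus B cells), -0.98, ranged from -1.45 to 1.09 with 1 library left out, reversing without BMDC Control replicate 2, and the cause was not tested. The difference of Sting1 (-0.23) passed with the stricter filter (-0.29) and without B cell MSA2 replicate 2 (-0.30).

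Depth limited the interferon genes, since most had no counts in Control replicates 1 and 3. Dose, time and the origin of the replicates were not given in the sources used here.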

Other observations

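The BMDC table has a row for the reporter eGFP, which is no mouse gene. It held 46.3 to 63.5 CPM in the BMDC libraries, Control included, and its source was not analysed here. Among the 14 tested type I interferons, Ifnz was the smallest rise (3.31), with 2 counts over Control and 31 over MSA2. The 2 libraries given MSA2 with IPI-549 lay between the Control and MSA2 libraries on the first principal component, at 12.2 and 15.6 against 21.9 to 27.8 for MSA2 and -37.0 to -31.4 for Control, and no test of that group is given here.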
